A study of Mus musculus with 22 samples.

Results

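The Bardet-Biedl, intraflagellar transport and connecting cilium genes are a set of 53 mouse genes whose proteins build and load the primary cilium. They were taken by gene symbol, and 52 of the 53 were among the 13812 Ensembl genes of the deposited expression table; Tctn2 was not analysed here. All 52 passed the filter on low values and were tested. The measurements were RNA sequencing of sorted cells of the mouse retina. The groups were bipolars, rods and cones, each taken on postnatal day 7 (P7), day 13 (P13) and day 30 (P30), with rod bipolars and cone bipolars at P13, 2 libraries in each of the 11 groups and 22 in all. The study's design text speaks of purified ON-bipolar cells where the sample labels say bipolars, rod bipolars and cone bipolars. The labels give neither the genotype or strain of the mice nor the reporter or antibody behind the sort, and they do not say if the 2 replicates are different animals. The p-values therefore measure the spread between these libraries, which may be technical.

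The outer segment of a rod or cone is a modified primary cilium, joined to the cell body by the connecting cilium, a long transition zone. Tubulin and membrane proteins reach it on intraflagellar transport (IFT) trains, which the IFT-B complex and kinesin-II carry outward and the IFT-A complex and dynein-2 carry back. The BBSome is an adaptor complex that moves membrane proteins out of cilia, and its loss causes Bardet-Biedl syndrome, in which photoreceptors degenerate. Bipolar cells, the interneurons that photoreceptors contact, have no outer segment. The comparisons ask how the genes of this machinery differ between the photoreceptors and the bipolars, between rods and cones, and over postnatal maturation, when outer segments grow.

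Many ciliary genes carry an X-box, the palindromic site of RFX transcription factors, near the start of transcription, and photoreceptor genes often carry sites of the homeodomain factors CRX and OTX2. Promoter windows of 57 transcripts from RefSeq (GRCm38, 250 bases before to 50 after each start) were matched by symbol for 49 of the 52 genes, and were searched on both strands. The X-box, searched as the arms GTTNCC and GGNAAC with 2 bases of any kind between them, occurred in 4 of the 49 genes (8.16%), compared with 0.529% of all 27025 genes with a window. The 49 were all in the expression table, while the 27025 include genes outside it. The shares are therefore not matched for expression. The single arm GGCAAC, which overlaps the X-box wherever that has C at its free letter, occurred in 20 of the 49 (40.8%) and in 14.1% of all genes. The core TAATCC of CRX and OTX2 occurred in 3 of the 49 (6.12%) and in 8.14% of all genes. The 4 X-box matches are shown with their flanks, 5′ to 3′ on the strand of the gene, because the transition zone and BBSome genes that hold them appear in the results for each cell type; capitals mark the motif, and the window of Tctn1 ends with it.
Ahi1, chr10:20952560-20952589, + strand: tagtctgaGTTACCTAGGCAACagcggcag
Bbs7, chr3:36613489-36613518, - strand: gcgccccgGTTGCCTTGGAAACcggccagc
Mks1, chr11:87853183-87853212, + strand: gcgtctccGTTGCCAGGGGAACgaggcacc
Tctn1, chr5:122264411-122264432, - strand: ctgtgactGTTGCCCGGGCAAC
The TAATCC core lay in the windows of Bbs1, Rpgrip1 and Unc119. Rpgrip1 had the lowest log2 difference of the set between bipolars and photoreceptors, and Unc119 the highest level per kilobase in photoreceptors, so their matches are shown in the same way, with the core (GGATTA on the strand of the gene) in capitals.
Rpgrip1, chr14:52110867-52110888, + strand: aaaggcctGGATTAgtgtctcc
Unc119, chr11:78345458-78345479, + strand: ctgtttctGGATTAccaggcct
A match says that these letters are in the window and nothing about binding.

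Depth ran from 14403312 to 54384385 reads per library, and the mitochondrial genome took between 2.18% and 38.7% of them, with a mean of 33.6% in cones at P30. Levels are in CPM, reads scaled to a common library size, with the authors' effective library sizes at 0.608 to 1.23 times the read totals. Each labelled cell type held the markers listed for it. The 10 rod markers summed to 15196 to 38306 CPM in rods, and the 10 cone markers to 17269 to 53223 CPM in cones. The 10 bipolar markers summed to between 6795 and 10501 CPM in bipolars, against 832 to 2173 CPM in rods and 847 to 1420 CPM in cones. Otx2, on the bipolar list, averaged 2116 CPM in rods and 2228 CPM in bipolars at P7. In cones, the rod markers stood at 10.9%, 9.97% and 12.3% of their level in rods at P7, P13 and P30, and the cone markers in rods at 2.64%, 0.378% and 0.435% of their level in cones. Most of the rod marker sum in cones was Gngt1, a transducin subunit, singled out after its values were seen, which stood in cones at 40.7%, 23.2% and 55.9% of its level in rods; the other 9 rod markers stood at 3.89%, 3.89% and 3.33%. Müller glia markers summed to 285 to 290.3 CPM in bipolars at P7, 979 to 1229 CPM at P13 and 5488 to 8461 CPM at P30, and none of the 10 was at 0. Amacrine, vascular, microglial and red blood cell markers were also higher in bipolars at P30, with means of 607, 592, 220 and 140 CPM against 252, 28.6, 5.21 and 0.0515 CPM at P7. Rod bipolar markers in bipolars averaged 815, 1617 and 3118 CPM at P7, P13 and P30, and cone bipolar markers 2042, 1248 and 958 CPM. The part of these markers, and of the mix of bipolar types, in the bipolar values was not tested.

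Summed over the 52 genes, bipolars held 2378 to 3255 CPM, against 9184 to 13037 CPM in rods and 6877 to 9055 CPM in cones. At P13, rod bipolars held 4883 to 5255 CPM and cone bipolars 3254 to 3414 CPM. The libraries of bipolars therefore lay below all libraries of photoreceptors, and the rod libraries lay above the cone libraries of the same age, which also held for the sum without Rpgrip1 and Unc119. Across ages, rods at P7 held 9408 and 9184 CPM, against at most 9055 CPM in cones at P30. Without the 2 genes that order turned, with 6000 and 5372 CPM in rods at P7, against 6268 and 6328 CPM in cones at P30. In sorted bulk samples of this kind, fewer ciliated cells and less ciliary RNA per cell cannot be told apart. Of the 52 genes, 36 had their highest group mean in rods, 10 in cones and 6 in bipolars, over the 9 groups with 3 ages, and 42 had their lowest in bipolars. Replicates lay close together for the set: the median SD of a gene's log2 CPM was lowest, at 0.13, in bipolars at P7 and highest, at 0.24, in rods at P13. Over all genes it was 0.13 and 0.49 in these 2 groups. Genes with no reads numbered 174 to 2463 per library, the most in rod P13 replicate 2.

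**Figure D1:**
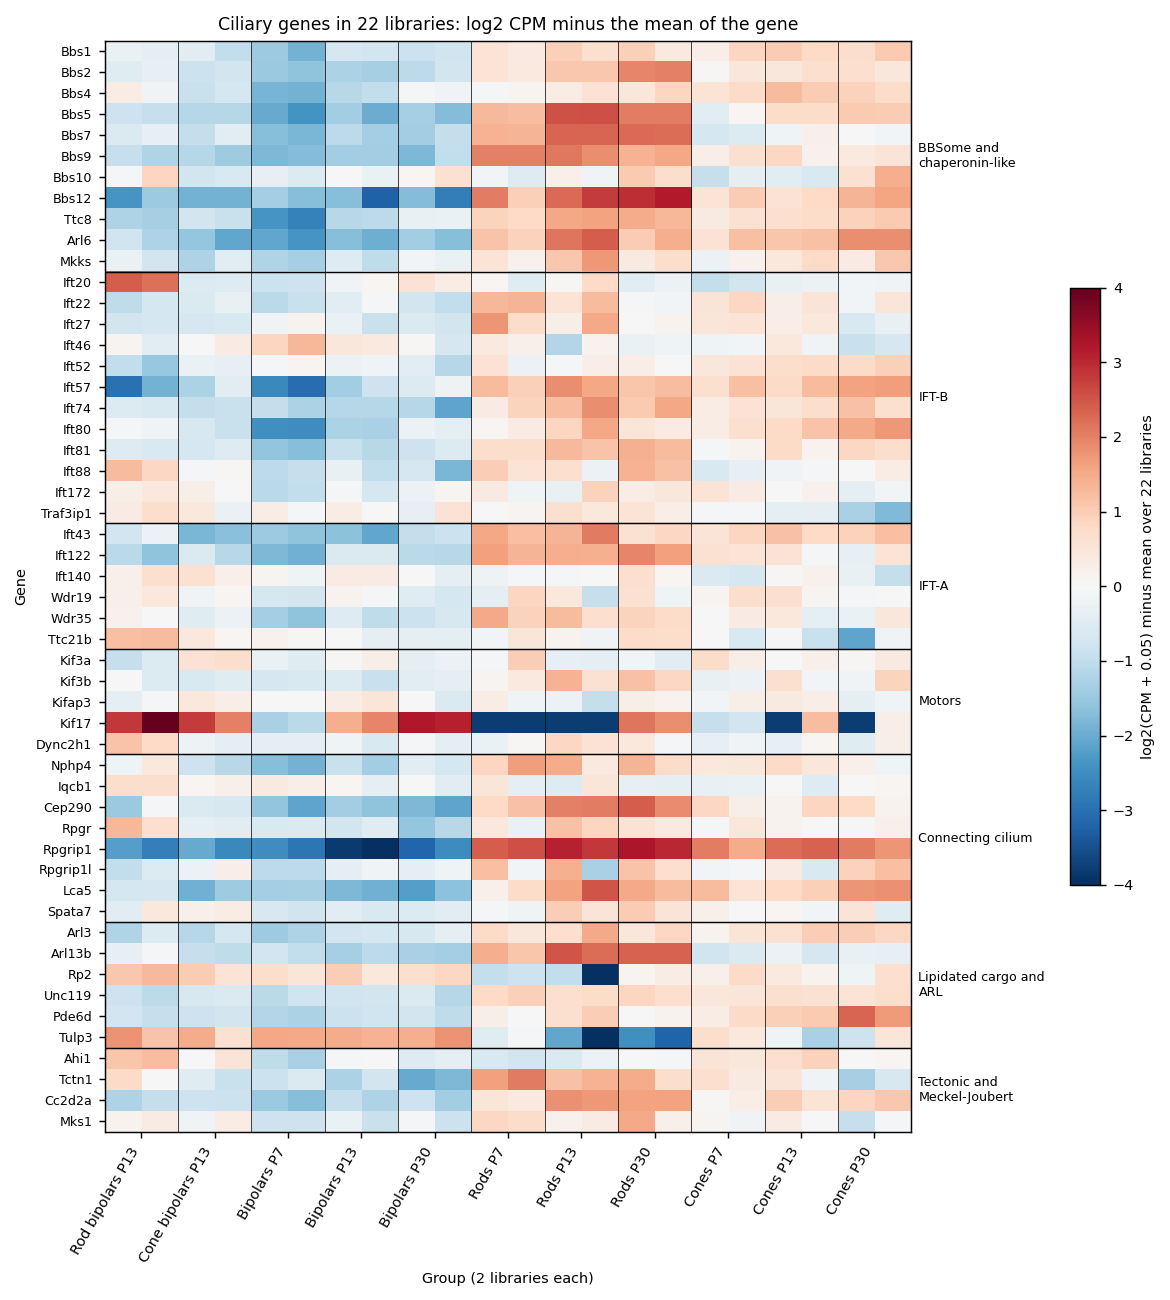
Level of the 52 ciliary genes in each of the 22 libraries, as log2(CPM + 0.05) minus the gene's mean over all libraries; rows are genes grouped by role, columns are the libraries of each group, and 4 values lie beyond the ends of the colour scale at 4 and -4. Most rows are blue in the bipolar columns and red in the rod columns, while Tulp3, Kif17 and Ift46 run the other way in part.

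Per kilobase of exon, the carriers of lipidated proteins and the small GTPases headed the set. Unc119, which shields the myristoyl group of transducin, was first in all 6 photoreceptor groups, with mean levels of 653, 581 and 606 CPM per kb in rods at P7, P13 and P30 and 492, 546 and 545 CPM per kb in cones. In bipolars Unc119 was first at P7 and P13, at 185 and 206 CPM per kb, and second at P30, at 199, after Ift20 at 211 CPM per kb. The next places in photoreceptors went mostly to Arl3, Arl6, Rpgrip1, Pde6d and Ift20. Kif17 was the lowest of the set in all photoreceptor groups except rods at P30, where Tulp3 was lower. The median gene of the set stood at 19.5 to 20.3 CPM per kb in rods, 13.5 to 15.9 CPM per kb in cones and 4.81 to 6.92 CPM per kb in bipolars. The RNA was amplified linearly, and how the reads spread along transcripts is not known, so levels per kilobase order genes only roughly.

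In bipolars, set against the mean of rods and cones of the same age, most of these genes were lower. A gene was called at an adjusted p under 0.05 in limma, over all 13405 genes tested, with a log2 difference of at least 1. At P7, 33 of the 52 genes (63.5%) were called, 1 higher and 32 lower, against 22.7% of all genes, and the 32 lower genes were 61.5% of the set against 11.1% of all genes. At P13, 32 were called, 2 higher and 30 lower, against 33.4% of all genes called and 12.8% lower. At P30 there were 30, 1 higher and 29 lower, against 35.6% of all genes called and 13% lower. The median log2 difference over the set was -1.49, -1.39 and -1.27 at P7, P13 and P30, beside medians of 0.12, 0.18 and 0.13 over all genes. With plain read totals in place of the authors' scaling, all genes shifted up, to medians of 0.27, 0.65 and 0.55, and the set's calls were 1 higher and 29 lower at P7, 5 and 24 at P13, and 3 and 23 at P30. In 39, 35 and 36 of the genes at P7, P13 and P30, both bipolar libraries lay below all 4 photoreceptor libraries, which held for 22.9%, 20.2% and 20% of all genes.

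A total of 25 genes were lower in bipolars at all 3 ages, and 5 more (Bbs4, Ift88, Kif3b, Mkks and Rpgr) at 2 ages. Of the 25, 23 kept the call at every age when any 1 library was left out, the exceptions being Nphp4 and Wdr35, and 19 kept it with plain read totals. Rod and cone markers were low in bipolars. The rod markers stood at 2.25%, 1.17% and 2.41% of their level in rods at P7, P13 and P30, and the cone markers at 0.966%, 0.397% and 1.06% of their level in cones. The median gene of the set stood in bipolars at 29.6%, 32.2% and 39.1% of its level in rods, over the 51, 51 and 52 genes with reads in rods. Rpgrip1 stood far lower, at 2.76%, 0.691% and 1.63% of rods, while Unc119 stood at 28.3%, 35.5% and 32.9%. The part of photoreceptor RNA in the bipolar values was not tested.

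**Figure D2:**
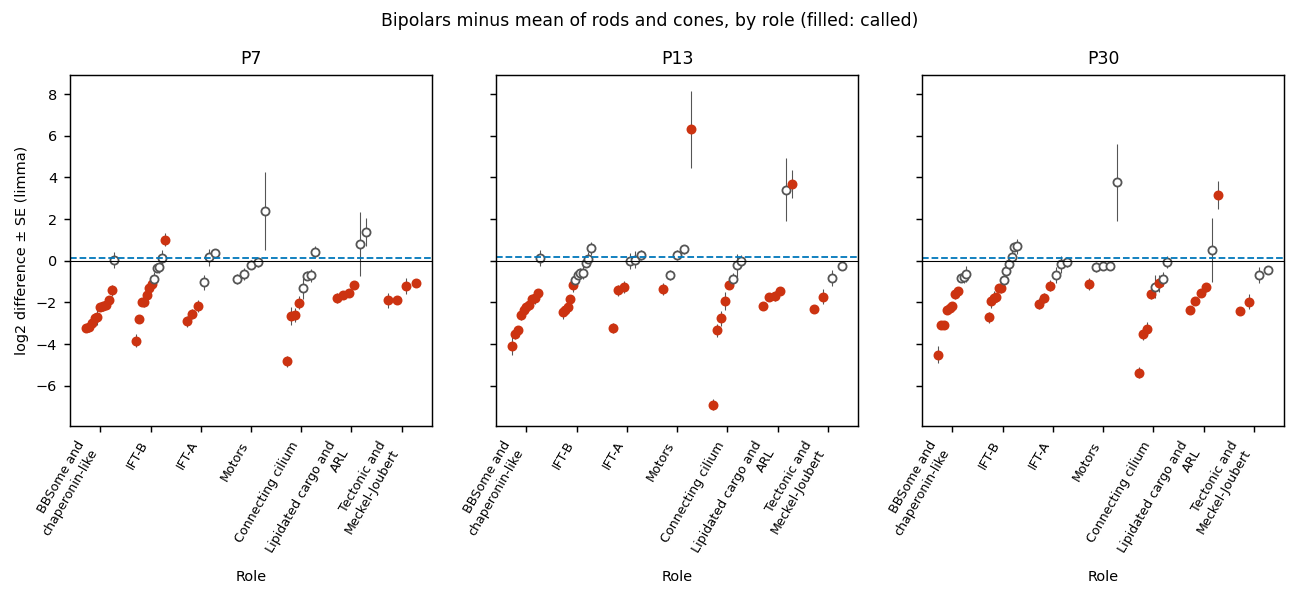
Log2 difference of bipolars minus the mean of rods and cones for each of the 52 genes at P7, P13 and P30, grouped by role; points are limma estimates, bars their SE, filled points were called, and the dashed line is the median of all genes tested. Most genes lie below 0 in each role, except among the motors at P13, with Rpgrip1 lowest at -4.83, -6.92 and -5.37.

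Among the 11 BBSome and chaperonin-like genes, 10, 10 and 8 were lower in bipolars at P7, P13 and P30, and none was higher; the median log2 differences were -2.23, -2.21 and -2.16. Bbs5, a phosphoinositide-binding subunit of the BBSome, stood at 14.1 and 10.7 CPM at P7, 21.5 and 14.4 CPM at P13, and 22.5 and 17.1 CPM at P30 in the bipolar libraries. Bbs5 in rods stood at 139 and 132 CPM at P7, 331 and 336 CPM at P13, and 233 and 236 CPM at P30. In cones Bbs5 stood at 42.7 and 59.1 CPM at P7, 93.8 and 93.7 CPM at P13, and 116 and 114 CPM at P30. Its bipolar libraries lay below every photoreceptor library of the same age, with log2 differences of -2.75 ± 0.19, -3.33 ± 0.19 and -3.07 ± 0.19 (SE; largest adjusted p = 4.48e-08). Bbs9, a scaffold subunit, had 31.8 and 33.01 CPM at P7, 42.1 and 42.2 CPM at P13, and 31.7 and 56.2 CPM at P30 in bipolars. Bbs9 measured 449 and 449.9 CPM at P7, 472 and 399 CPM at P13, and 289 and 324 CPM at P30 in rods. Bbs9 in cones was at 132 and 171 CPM at P7, 197 and 124 CPM at P13, and 146 and 159 CPM at P30. Bbs9 in bipolars did not overlap either photoreceptor, with log2 differences of -3.00 ± 0.22, -2.63 ± 0.22 and -2.36 ± 0.22 (SE; largest adjusted p = 7.52e-07). Bbs12, which belongs to the chaperonin-like group that assembles the complex, stood at 16.5 and 13.1 CPM at P7, 13.2 and 4.51 CPM at P13, and 12.9 and 6.26 CPM at P30 in the bipolar libraries. Bbs12 in rods stood at 177 and 83.8 CPM at P7, 207 and 298 CPM at P13, and 330.5 and 385 CPM at P30. In cones Bbs12 stood at 62.5 and 86.9 CPM at P7, 64.6 and 75.2 CPM at P13, and 109.9 and 128 CPM at P30. The bipolar libraries of Bbs12 lay below all photoreceptor libraries of their age, with log2 differences of -2.69 ± 0.41, -4.09 ± 0.41 and -4.52 ± 0.41 (SE; largest adjusted p = 1.56e-04).

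Arl6, the small GTPase that recruits the BBSome to membranes, had 36.02 and 29.4 CPM at P7, 46.6 and 39.7 CPM at P13, and 58.03 and 47.1 CPM at P30 in bipolars. Arl6 measured 334 and 288 CPM at P7, 675 and 817 CPM at P13, and 308 and 415 CPM at P30 in rods. Arl6 in cones was at 229.7 and 351 CPM at P7, 326 and 345 CPM at P13, and 552 and 554 CPM at P30. Arl6 in bipolars lay below every photoreceptor library of its age, with log2 differences of -3.19 ± 0.21, -3.54 ± 0.21 and -3.09 ± 0.21 (SE; largest adjusted p = 2.80e-08). Bbs1, the subunit that binds ARL6, stood at 40.7 and 29.9 CPM at P7, 70.4 and 65.5 CPM at P13, and 60.6 and 63.6 CPM at P30 in the bipolar libraries. Bbs1 in rods stood at 164 and 143 CPM at P7, 214 and 173 CPM at P13, and 213 and 147 CPM at P30. In cones Bbs1 stood at 133 and 199.8 CPM at P7, 223 and 193 CPM at P13, and 180.4 and 228 CPM at P30. The log2 differences of Bbs1 were -2.18 ± 0.22, -1.55 ± 0.22 and -1.61 ± 0.22 (SE; largest adjusted p = 4.17e-05). Bbs2, another core subunit, had 28.5 and 25.8 CPM at P7, 33.1 and 31.3 CPM at P13, and 38.2 and 47.8 CPM at P30 in bipolars. Bbs2 measured 116 and 103 CPM at P7, 168 and 168 CPM at P13, and 307 and 318 CPM at P30 in rods. Bbs2 in cones was at 82.3 and 108 CPM at P7, 109 and 127 CPM at P13, and 127 and 107 CPM at P30. The log2 differences of Bbs2 were -1.90 ± 0.16, -2.13 ± 0.16 and -2.16 ± 0.16 (SE; largest adjusted p = 2.01e-07). Bbs7, a subunit related to BBS2, stood at 22.6 and 21.02 CPM at P7, 35.4 and 28.7 CPM at P13, and 28.2 and 38.1 CPM at P30 in the bipolar libraries. Bbs7 in rods stood at 196 and 189 CPM at P7, 371 and 369 CPM at P13, and 356 and 349 CPM at P30. In cones Bbs7 stood at 45.2 and 51.03 CPM at P7, 65.8 and 85.8 CPM at P13, and 74.1 and 68.2 CPM at P30. The bipolar values of Bbs7 lay below those of cones as well as of rods, and the log2 differences were -2.14 ± 0.18, -2.39 ± 0.18 and -2.27 ± 0.18 (SE; largest adjusted p = 3.45e-07).

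Ttc8, the subunit also known as BBS8, had 16.3 and 12.8 CPM at P7, 39.2 and 41.01 CPM at P13, and 68.4 and 70.8 CPM at P30 in bipolars. Ttc8 measured 156 and 146 CPM at P7, 249 and 256 CPM at P13, and 234 and 213 CPM at P30 in rods. Ttc8 in cones was at 107 and 129.6 CPM at P7, 135 and 139 CPM at P13, and 158 and 175 CPM at P30. The bipolar level of Ttc8 differed between ages, and the log2 difference was -3.21 ± 0.14, -2.21 ± 0.14 and -1.47 ± 0.14 at P7, P13 and P30 (SE; largest adjusted p = 8.84e-07). Bbs4, a subunit with tetratricopeptide repeats, stood at 47.6 and 46.8 CPM at P7, 80.6 and 88.9 CPM at P13, and 169 and 156 CPM at P30 in the bipolar libraries. Bbs4 in rods stood at 169.9 and 187 CPM at P7, 213 and 258 CPM at P13, and 239 and 319 CPM at P30. In cones Bbs4 stood at 255 and 294 CPM at P7, 422 and 349 CPM at P13, and 329 and 291 CPM at P30. Bbs4 was lower in bipolars at P7, at a log2 difference of -2.23 ± 0.16 (SE; adjusted p = 5.44e-08), and at P13, at a log2 difference of -1.82 ± 0.16 (SE; adjusted p = 3.69e-07), and at P30 its log2 difference was -0.85 ± 0.16, past the adjusted p but short of the fold. Mkks, a chaperonin-like protein, had 43.5 and 39.9 CPM at P7, 69.6 and 48.7 CPM at P13, and 93.1 and 81.9 CPM at P30 in bipolars. Mkks measured 147 and 111 CPM at P7, 210.2 and 334 CPM at P13, and 127 and 160.4 CPM at P30 in rods. Mkks in cones was at 84.9 and 112 CPM at P7, 133 and 172 CPM at P13, and 125 and 208 CPM at P30. Mkks had log2 differences of -1.42 ± 0.28 at P7 and -1.78 ± 0.28 at P13, both called (SE; largest adjusted p = 0.00114), and -0.80 ± 0.28 at P30. Exons of Mkks share bases with other genes on both strands, and the library kit does not mark strand, so some of its reads may belong to them. Bbs10, the third chaperonin-like gene, was the exception, with log2 differences of 0.05 ± 0.38, 0.13 ± 0.38 and -0.62 ± 0.38 (SE) and no call at any age.

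Of the 12 IFT-B genes, 7, 5 and 6 were lower in bipolars at P7, P13 and P30. Ift57, a peripheral subunit that links to kinesin-II, stood at 7.54 and 5.37 CPM at P7, 17.3 and 25.2 CPM at P13, and 31.01 and 39.3 CPM at P30 in the bipolar libraries. Ift57 in rods stood at 109 and 86.7 CPM at P7, 165 and 133 CPM at P13, and 97.5 and 106 CPM at P30. In cones Ift57 stood at 70.5 and 103 CPM at P7, 76.7 and 109 CPM at P13, and 137 and 143 CPM at P30. Every bipolar library of Ift57 lay below the photoreceptor libraries of its age, with log2 differences of -3.84 ± 0.32, -2.48 ± 0.32 and -1.77 ± 0.32 (SE; largest adjusted p = 3.77e-04). Ift80, another peripheral subunit, had 13.7 and 13.3 CPM at P7, 30.9 and 30.2 CPM at P13, and 63.4 and 58.5 CPM at P30 in bipolars. Ift80 measured 78.9 and 92.997 CPM at P7, 134 and 219 CPM at P13, and 105 and 93.9 CPM at P30 in rods. Ift80 in cones was at 91.9 and 117 CPM at P7, 131 and 165 CPM at P13, and 214 and 250.1 CPM at P30. Ift80 in bipolars had log2 differences of -2.80 ± 0.19, -2.38 ± 0.19 and -1.31 ± 0.19 (SE; largest adjusted p = 6.38e-05). Ift74, which binds tubulin together with IFT81, stood at 44.6 and 35.5 CPM at P7, 38.6 and 38.8 CPM at P13, and 39.1 and 19.9 CPM at P30 in the bipolar libraries. Ift74 in rods stood at 108 and 160.5 CPM at P7, 203 and 310.0 CPM at P13, and 177 and 251 CPM at P30. In cones Ift74 stood at 107 and 128 CPM at P7, 119 and 140.4 CPM at P13, and 194 and 135 CPM at P30. The 2 bipolar libraries at P30 did not overlap any photoreceptor library, and the log2 differences of Ift74 were -1.64 ± 0.27, -2.22 ± 0.27 and -2.73 ± 0.27 (SE; largest adjusted p = 2.56e-04). Ift81, its partner, had 42.1 and 39.1 CPM at P7, 67.4 and 58.5 CPM at P13, and 71.6 and 87.04 CPM at P30 in bipolars. Ift81 measured 204 and 205 CPM at P7, 308 and 277 CPM at P13, and 335 and 301 CPM at P30 in rods. Ift81 in cones was at 119 and 140.2 CPM at P7, 214 and 139 CPM at P13, and 225 and 207 CPM at P30. Ift81 had log2 differences of -2.01 ± 0.16, -1.84 ± 0.16 and -1.73 ± 0.16 (SE; largest adjusted p = 9.38e-07).

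Ift88, a core IFT-B subunit, stood at 16.9 and 18.3 CPM at P7, 28.1 and 17.6 CPM at P13, and 22.1 and 9.87 CPM at P30 in the bipolar libraries. Ift88 in rods stood at 68.5 and 50.5 CPM at P7, 55.2 and 29.5 CPM at P13, and 90.99 and 78.6 CPM at P30. In cones Ift88 stood at 22.8 and 27.7 CPM at P7, 31.9 and 33.4 CPM at P13, and 34.99 and 42.5 CPM at P30. Ift88 was lower in bipolars at P7, at a log2 difference of -1.13 ± 0.32 (SE; adjusted p = 0.0144), and at P30, at a log2 difference of -1.95 ± 0.32 (SE; adjusted p = 1.92e-04), and the P7 call ended when either bipolar library was left out, with adjusted p = 0.108 and 0.0786. The remaining IFT-B genes were called at 1 age or at none. Ift22, a small GTPase of the complex, was lower at P7 (-1.99 ± 0.25 SE, adjusted p = 2.20e-05), as was Ift172 (-1.30 ± 0.30 SE, adjusted p = 0.00428), whose call ended without bipolar P7 replicate 1 (adjusted p = 0.0511). Ift27, the other small GTPase, was lower at P13 (-1.17 ± 0.33 SE, adjusted p = 0.0103), and its log2 difference was -0.86 when either bipolar P13 replicate 2 or rod P13 replicate 2 was left out. Ift52 was lower at P30 (-1.31 ± 0.25 SE, adjusted p = 7.47e-04) and lost the fold without bipolar P30 replicate 2, at -0.96. Ift46 was the only IFT-B gene called higher: it had 93.1 and 127 CPM in bipolars at P7, against 66.7 and 58.4 CPM in rods and 45.4 and 47.5 CPM in cones. The difference of 1.02 ± 0.31 (SE; adjusted p = 0.0219) fell short of the call when any 1 of 4 libraries was left out, with values from 0.79 to 1.24. Ift20 and Traf3ip1 were called at no age in this comparison.

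The 6 IFT-A genes split evenly. Ift43, Ift122 and Wdr35 were lower in bipolars at all 3 ages, while Ift140, Wdr19 and Ttc21b were called at none and had log2 differences between -1.04 and 0.35. Ift122, a core subunit, had 10.005 and 9.33 CPM at P7, 23.7 and 23.7 CPM at P13, and 16.5 and 16.2 CPM at P30 in bipolars. Ift122 measured 111 and 90.9 CPM at P7, 96.4 and 94.9 CPM at P13, and 136 and 110.1 CPM at P30 in rods. Ift122 in cones was at 53.4 and 51.2 CPM at P7, 53.1 and 33.98 CPM at P13, and 28.03 and 51.8 CPM at P30. The log2 differences of Ift122 were -2.91 ± 0.27, -1.43 ± 0.27 and -2.06 ± 0.27 (SE; largest adjusted p = 5.88e-04). Ift43, a small peripheral subunit, stood at 26.9 and 24.6 CPM at P7, 23.8 and 17.4 CPM at P13, and 38.1 and 41.4 CPM at P30 in the bipolar libraries. Ift43 in rods stood at 219 and 172 CPM at P7, 191 and 315 CPM at P13, and 113 and 131 CPM at P30. In cones Ift43 stood at 105 and 134 CPM at P7, 169 and 129 CPM at P13, and 142 and 172 CPM at P30. Ift43 in bipolars lay below all photoreceptor libraries, with log2 differences of -2.56 ± 0.23, -3.22 ± 0.23 and -1.80 ± 0.23 (SE; largest adjusted p = 1.84e-05). Wdr35, another IFT-A subunit, had 17.8 and 15.2 CPM at P7, 31.9 and 22.9 CPM at P13, and 25.5 and 29.8 CPM at P30 in bipolars. Wdr35 measured 131 and 87.1 CPM at P7, 111 and 74.2 CPM at P13, and 86.3 and 76.7 CPM at P30 in rods. Wdr35 in cones was at 46.5 and 57.4 CPM at P7, 62.2 and 35.1 CPM at P13, and 38.04 and 62.8 CPM at P30. Wdr35 had log2 differences of -2.18 ± 0.28, -1.27 ± 0.28 and -1.19 ± 0.28 (SE; largest adjusted p = 0.00305), and its P13 call ended without bipolar P13 replicate 2 (adjusted p = 0.052).

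Of the 5 motor genes, few differed. Kif3a and Kifap3, subunits of kinesin-II, and Dync2h1, the heavy chain of dynein-2, were called at no age; their log2 differences ran from -0.88 to 0.54. Kif3b, the other motor subunit of kinesin-II, stood at 57.1 and 59.7 CPM at P7, 62.7 and 48.9 CPM at P13, and 66.9 and 69.9 CPM at P30 in the bipolar libraries. Kif3b in rods stood at 97.9 and 120.0 CPM at P7, 239 and 139 CPM at P13, and 206 and 162 CPM at P30. In cones Kif3b stood at 74.3 and 77.2 CPM at P7, 144 and 83.9 CPM at P13, and 82.8 and 171 CPM at P30. Kif3b was lower at P13, at a log2 difference of -1.35 ± 0.29 (SE; adjusted p = 0.0018), and at P30, at a log2 difference of -1.11 ± 0.29 (SE; adjusted p = 0.00653), where leaving out cone P30 replicate 2 brought the difference to -0.85. Kif17, a homodimeric kinesin of the same family, ran the other way at low levels. Its bipolar values were 0.233 and 0.283 CPM at P7, 1.84 and 2.67 CPM at P13, and 6.44 and 5.96 CPM at P30. Kif17 had no read in any rod library at P7 or P13 and 3.01 and 2.51 CPM in rods at P30, while cones had 0.317 and 0.3605 CPM at P7, 0 and 1.58 CPM at P13, and 0 and 0.795 CPM at P30. The P13 difference was called (adjusted p = 0.0134), and the call ended when either bipolar library was left out (adjusted p = 0.0642 and 0.093). The fitted size depends on the prior of the log scale, so a bound is given, against rods alone. Bipolars at P13 were at least 51.3-fold higher than rods at P13, with rods at the floor of 3 reads over both libraries (0.044 CPM). The bound covers counting error only and does not hold against cones, with 0 and 1.58 CPM at P13.

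Among the 8 connecting cilium genes, 4, 5 and 5 were lower in bipolars. Rpgrip1, whose protein anchors RPGR in the connecting cilium, had the lowest log2 difference of the set at each age. It spans chr14:52110704-52163546 (GRCm38, + strand) and shares 1057 of its 12152 exon bases with Supt16 on the other strand. Rpgrip1 stood at 63.5 and 47.5 CPM at P7, 25.02 and 13.2 CPM at P13, and 39.4 and 62.2 CPM at P30 in the bipolar libraries. Rpgrip1 in rods stood at 1889.8 and 2134 CPM at P7, 2993 and 2538 CPM at P13, and 3349 and 2884 CPM at P30. In cones Rpgrip1 stood at 1477 and 991 CPM at P7, 1675 and 1831 CPM at P13, and 1514 and 1196 CPM at P30. No bipolar library came near a photoreceptor library, with log2 differences of -4.83 ± 0.27, -6.92 ± 0.27 and -5.37 ± 0.27 (SE; largest adjusted p = 3.41e-09). Cep290, which forms the links between microtubules and membrane in the transition zone, had 18.7 and 12.8 CPM at P7, 21.05 and 18.03 CPM at P13, and 15.7 and 12.8 CPM at P30 in bipolars. Cep290 measured 95.7 and 124 CPM at P7, 225 and 230.3 CPM at P13, and 298 and 206 CPM at P30 in rods. Cep290 in cones was at 98.4 and 65.2 CPM at P7, 60.6 and 100.5 CPM at P13, and 95.97 and 60.4 CPM at P30. Cep290 in bipolars lay below all rod and cone libraries, with log2 differences of -2.60 ± 0.35, -2.77 ± 0.35 and -3.27 ± 0.35 (SE; largest adjusted p = 3.68e-05). Cep290 shares 881 of its 11617 exon bases with 4930430F08Rik on the other strand, so some of its reads may belong to that gene. Lca5, lebercilin, an IFT-associated protein of the connecting cilium, stood at 8.42 and 8.704 CPM at P7, 6.26 and 5.72 CPM at P13, and 4.65 and 7.002 CPM at P30 in the bipolar libraries. Lca5 in rods stood at 24.8 and 35.95 CPM at P7, 66.2 and 124 CPM at P13, and 62.4 and 51.8 CPM at P30. In cones Lca5 stood at 51.97 and 31.9 CPM at P7, 37.4 and 42.5 CPM at P13, and 73.3 and 77.6 CPM at P30. Lca5 had log2 differences of -2.02 ± 0.31, -3.33 ± 0.31 and -3.52 ± 0.31 (SE; largest adjusted p = 1.50e-04).

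Nphp4, a nephrocystin of the transition zone, had 3.16 and 2.77 CPM at P7, 5.48 and 3.93 CPM at P13, and 7.75 and 6.26 CPM at P30 in bipolars. Nphp4 measured 18.9 and 33.1 CPM at P7, 29.2 and 13.6 CPM at P13, and 26.5 and 17.01 CPM at P30 in rods. Nphp4 in cones was at 13.9 and 14.1 CPM at P7, 17.5 and 14.2 CPM at P13, and 11.8 and 9.13 CPM at P30. Nphp4 had log2 differences of -2.66 ± 0.42, -1.93 ± 0.42 and -1.09 ± 0.42 (SE; largest adjusted p = 0.0445), and the P30 call ended when any 1 of 4 libraries was left out, with values from -1.25 to -0.93. Rpgr, the X-linked GTPase regulator that RPGRIP1 holds, stood at 113 and 115 CPM at P7, 103 and 121 CPM at P13, and 58.5 and 78.8 CPM at P30 in the bipolar libraries. Rpgr in rods stood at 228 and 142 CPM at P7, 384 and 312 CPM at P13, and 255 and 222 CPM at P30. In cones Rpgr stood at 166 and 233 CPM at P7, 189.8 and 169.9 CPM at P13, and 167 and 196 CPM at P30. Rpgr was lower in bipolars at P13, at a log2 difference of -1.16 ± 0.22 (SE; adjusted p = 6.46e-04), and at P30, at a log2 difference of -1.61 ± 0.22 (SE; adjusted p = 3.40e-05), and at P7 its log2 difference was -0.72 ± 0.22 (SE). Rpgr shares 208 of its 7247 exon bases with Srpx. Iqcb1, Spata7 and Rpgrip1l were called at no age. Spata7, which stabilises the distal connecting cilium, had 11.5 and 10.2 CPM at P7, 13.1 and 11.6 CPM at P13, and 12.1 and 13.2 CPM at P30 in bipolars. Spata7 measured 17.1 and 15.9 CPM at P7, 35.6 and 25.4 CPM at P13, and 35.8 and 25.8 CPM at P30 in rods. Spata7 in cones was at 20.4 and 17.97 CPM at P7, 18.7 and 16.5 CPM at P13, and 25.3 and 12.7 CPM at P30. Its log2 differences were -0.71 ± 0.32, -0.90 ± 0.32 and -0.89 ± 0.32 (SE). Iqcb1, a binding partner of CEP290, stood at 65.3 and 60.6 CPM at P7, 53.2 and 39.7 CPM at P13, and 50.3 and 38.03 CPM at P30 in the bipolar libraries. Iqcb1 in rods stood at 71.1 and 38.5 CPM at P7, 35.1 and 70.3 CPM at P13, and 39.9 and 39.7 CPM at P30. In cones Iqcb1 stood at 40.7 and 41.7 CPM at P7, 50.8 and 34.9 CPM at P13, and 51.4 and 53.4 CPM at P30. Bipolars overlapped the photoreceptors, and the log2 differences of Iqcb1 were 0.44 ± 0.28, 0.01 ± 0.28 and -0.06 ± 0.28 (SE). Rpgrip1l had log2 differences of -1.29 ± 0.55, -0.23 ± 0.55 and -1.25 ± 0.55 (SE), with rod libraries that ranged from 10.7 to 70.9 CPM.

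The proteins that carry lipidated cargo into the outer segment and their GTPases gave 4 lower genes at each age, Arl3, Arl13b, Unc119 and Pde6d, and higher Tulp3 at P13 and P30. Unc119 stood at 406 and 498 CPM at P7, 493 and 515 CPM at P13, and 581 and 395 CPM at P30 in the bipolar libraries. Unc119 in rods stood at 1517 and 1678 CPM at P7, 1391 and 1453 CPM at P13, and 1579.7 and 1387 CPM at P30. In cones Unc119 stood at 1193 and 1218 CPM at P7, 1358 and 1316 CPM at P13, and 1274 and 1396 CPM at P30. The bipolar values of Unc119 lay below every photoreceptor library, with log2 differences of -1.63 ± 0.15, -1.45 ± 0.15 and -1.55 ± 0.15 (SE; largest adjusted p = 1.94e-06). Pde6d, which binds the prenyl groups of phosphodiesterase 6 and rhodopsin kinase, had 77.7 and 73.02 CPM at P7, 96.2 and 101 CPM at P13, and 105 and 85.995 CPM at P30 in bipolars. Pde6d measured 206 and 179 CPM at P7, 271 and 347 CPM at P13, and 174 and 194 CPM at P30 in rods. Pde6d in cones was at 216 and 298 CPM at P7, 339.8 and 365 CPM at P13, and 884 and 575 CPM at P30. Pde6d had log2 differences of -1.55 ± 0.18, -1.74 ± 0.18 and -1.93 ± 0.18 (SE; largest adjusted p = 8.86e-06). Arl3, the GTPase that releases cargo from both carriers, stood at 129.9 and 149 CPM at P7, 205 and 215 CPM at P13, and 223 and 265 CPM at P30 in the bipolar libraries. Arl3 in rods stood at 599.7 and 478 CPM at P7, 562 and 1008 CPM at P13, and 473 and 613 CPM at P30. In cones Arl3 stood at 386 and 496 CPM at P7, 527 and 690.4 CPM at P13, and 689.6 and 616 CPM at P30. Arl3 was lower with log2 differences of -1.80 ± 0.24, -1.68 ± 0.24 and -1.28 ± 0.24 (SE; largest adjusted p = 4.98e-04).

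Arl13b, the exchange factor that activates ARL3 in the cilium, had 27.9 and 24.02 CPM at P7, 18.8 and 23.03 CPM at P13, and 19.4 and 18.6 CPM at P30 in bipolars. Arl13b measured 129.8 and 102 CPM at P7, 274 and 224 CPM at P13, and 243 and 244 CPM at P30 in rods. Arl13b in cones was at 27.2 and 31.8 CPM at P7, 40.7 and 29.7 CPM at P13, and 38.7 and 38.1 CPM at P30. The bipolars overlapped the cones at P7, and the log2 differences of Arl13b from the photoreceptor mean, -1.17 ± 0.19, -2.16 ± 0.19 and -2.35 ± 0.19 (SE; largest adjusted p = 2.09e-04), came with far higher rod values. Rp2, the protein that switches ARL3 off, stood at 16.01 and 13.6 CPM at P7, 19.3 and 13.1 CPM at P13, and 15.4 and 17.2 CPM at P30 in the bipolar libraries. Rp2 in rods stood at 4.99 and 5.46 CPM at P7, 4.95 and 0 CPM at P13, and 10.5 and 11.9 CPM at P30. In cones Rp2 stood at 11.2 and 16.5 CPM at P7, 12.8 and 10.9 CPM at P13, and 8.57 and 15.7 CPM at P30. Rp2 was called at no age in bipolars against photoreceptors, with log2 differences of 0.81 ± 1.53, 3.41 ± 1.53 and 0.52 ± 1.53 (SE), the wide error coming with 1 rod library at 0. Tulp3, which loads membrane receptors onto IFT-A, had 47.2 and 46.4 CPM at P7, 44.95 and 42.7 CPM at P13, and 44.7 and 56.1 CPM at P30 in bipolars. Tulp3 measured 11.5 and 15.3 CPM at P7, 3.76 and 0.377 CPM at P13, and 2.92 and 1.73 CPM at P30 in rods. Tulp3 in cones was at 26.6 and 21.7 CPM at P7, 14.4 and 6.52 CPM at P13, and 9.09 and 22.8 CPM at P30. All bipolar libraries of Tulp3 lay above all photoreceptor libraries, and the gene was called higher at P13, by 3.68 ± 0.67 (SE; adjusted p = 4.76e-04), and at P30, by 3.13 ± 0.67 (SE; adjusted p = 0.00156), while the P7 difference was 1.39 ± 0.67 (SE; adjusted p = 0.138).

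The 4 tectonic and Meckel-Joubert genes, which form the barrier of the transition zone, were all lower at P7, and Tctn1 and Cc2d2a at each age. Cc2d2a, a coiled-coil protein of the barrier, stood at 37.1 and 31.8 CPM at P7, 55.5 and 44.7 CPM at P13, and 58.6 and 39.4 CPM at P30 in the bipolar libraries. Cc2d2a in rods stood at 145 and 137 CPM at P7, 373 and 347 CPM at P13, and 321 and 319 CPM at P30. In cones Cc2d2a stood at 108 and 126 CPM at P7, 207 and 152 CPM at P13, and 188 and 221 CPM at P30. Cc2d2a had log2 differences of -1.90 ± 0.18, -2.34 ± 0.18 and -2.41 ± 0.18 (SE; largest adjusted p = 1.12e-06). Tctn1, a tectonic, had 8.33 and 10.3 CPM at P7, 6.35 and 9.26 CPM at P13, and 3.74 and 4.36 CPM at P30 in bipolars. Tctn1 measured 47.4 and 64.1 CPM at P7, 34.8 and 39.9 CPM at P13, and 42.9 and 24.9 CPM at P30 in rods. Tctn1 in cones was at 24.2 and 19.6 CPM at P7, 21.8 and 13.6 CPM at P13, and 6.01 and 9.89 CPM at P30. Tctn1 had log2 differences of -1.90 ± 0.36, -1.72 ± 0.36 and -1.97 ± 0.36 (SE; largest adjusted p = 0.00152). Tctn1 shares 2113 of its 8295 exon bases with other genes, so some of its reads may belong to them. Ahi1, jouberin, stood at 125 and 104 CPM at P7, 238 and 248 CPM at P13, and 175 and 195 CPM at P30 in the bipolar libraries. Ahi1 in rods stood at 166 and 154 CPM at P7, 171 and 213 CPM at P13, and 248 and 245 CPM at P30. In cones Ahi1 stood at 366 and 348 CPM at P7, 406 and 475 CPM at P13, and 257 and 267 CPM at P30. Ahi1 was lower at P7 only among the 3 ages (-1.07 ± 0.15 SE, adjusted p = 4.56e-05), a call that lost the fold without bipolar P7 replicate 2 (-0.93). Mks1 was also lower at P7 (-1.20 ± 0.38 SE, adjusted p = 0.0273), and 4 of the 6 libraries ended that call when left out, with adjusted p between 0.0547 and 0.145.

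**Figure D3:**
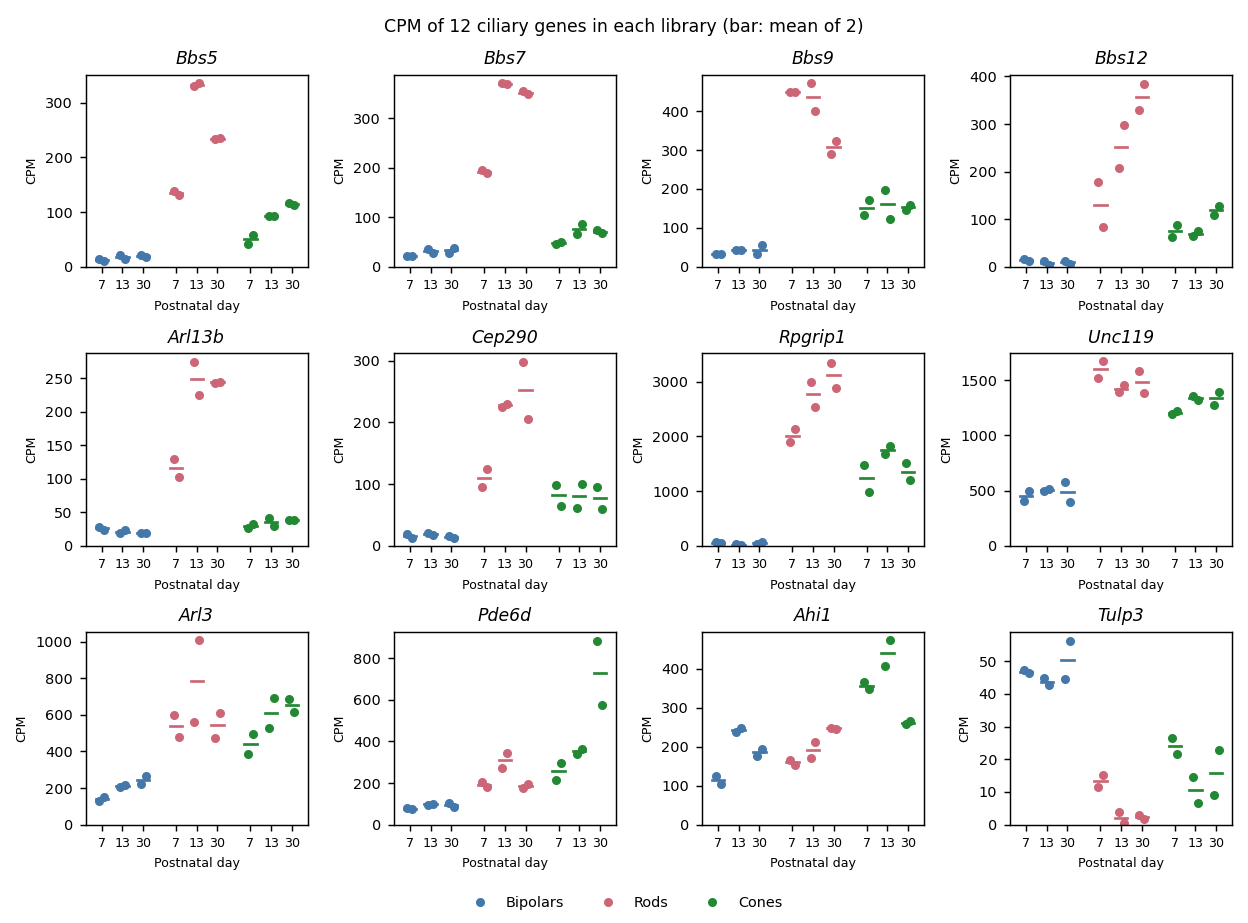
CPM in each library of 12 ciliary genes in bipolars, rods and cones at P7, P13 and P30; points are libraries and bars the mean of 2, and each panel has its own axis that starts at 0. Bipolars lie below both photoreceptors at each age in the panels of Bbs5, Bbs7, Bbs9, Bbs12, Cep290, Rpgrip1, Unc119, Arl3 and Pde6d, and above both in the panel of Tulp3.

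Between rods and cones, fewer genes of the set differed, and most of those that did were higher in rods. At P7, 8 of 52 were called, 7 higher and 1 lower in rods, against 12.8% of all genes called, 3.3% higher and 9.52% lower. At P13, 13 were called, 10 higher and 3 lower, against 21.2% of all genes called, 7.1% higher and 14.1% lower. At P30, 17 were called, 14 higher and 3 lower, against 20% of all genes called, 9.98% higher and 10% lower. As shares of the set, the called genes were 15.4%, 25% and 32.7%, and the higher ones 13.5%, 19.2% and 26.9%. The median log2 difference over the set was 0.35, 0.54 and 0.43, beside -0.16, -0.11 and 0.14 over all genes. Calls here moved with the setting: when the fit held the compared groups alone they numbered 3 at P13 and 7 at P30, and with plain read totals 5 at P7 (4 higher and 1 lower) and 28 at P30 (27 higher and 1 lower), where the median of all genes was 0.74. Of the genes higher in rods, 4 at P7, 5 at P13 and 7 at P30 kept their call whichever library was left out.

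**Figure D4:**
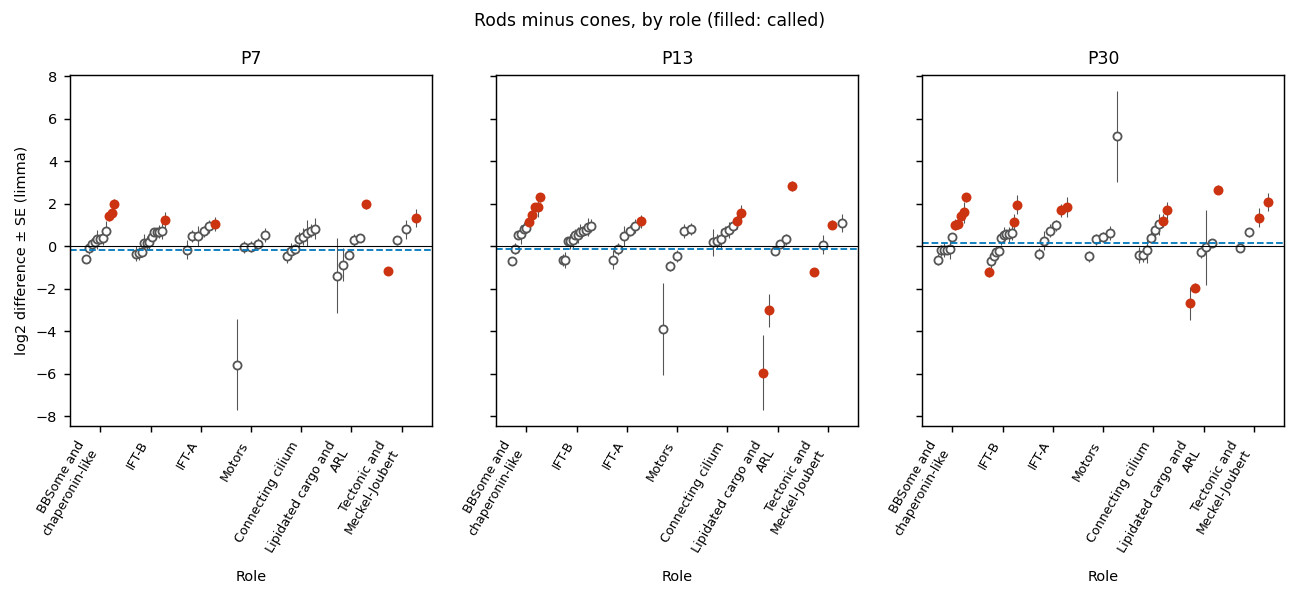
Log2 difference of rods minus cones for each of the 52 genes at P7, P13 and P30, grouped by role; points are limma estimates, bars their SE, filled points were called, and the dashed line is the median of all genes tested. The BBSome group holds called genes at each age, up to 2.31, and the lower calls are Ahi1, Rp2, Tulp3, Ift80 and Pde6d.

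The 4 genes higher in rods at all 3 ages were Arl13b, Bbs5, Bbs7 and Bbs9, with the library values given above. Arl13b had log2 differences of 1.97 ± 0.22, 2.83 ± 0.22 and 2.67 ± 0.22 (SE; largest adjusted p = 1.31e-05), and the lowest rod library, at 102 CPM, stood above the highest cone library, at 40.7 CPM. Bbs7 had log2 differences of 2.00 ± 0.21, 2.30 ± 0.21 and 2.31 ± 0.21 (SE; largest adjusted p = 9.51e-06), with rod libraries between 189 and 371 CPM and cone libraries between 45.2 and 85.8 CPM. The differences of Bbs5 were 1.43 ± 0.22, 1.83 ± 0.22 and 1.03 ± 0.22 (SE; largest adjusted p = 0.00344), and those of Bbs9 were 1.58 ± 0.25, 1.47 ± 0.25 and 1.00 ± 0.25 (SE; largest adjusted p = 0.00904). For Bbs9 the P30 difference of 1.00 sat at the fold threshold, and left the call without either of 2 libraries. Bbs12 was higher at P13 (1.83 ± 0.48 SE, adjusted p = 0.0107) and P30 (1.59 ± 0.48 SE, adjusted p = 0.024), and the P30 call ended when any library of the comparison was left out (adjusted p between 0.0517 and 0.113). At P13 it ended without rod P13 replicate 2 or cone P13 replicate 1. Bbs2 was higher at P30 only, with 307 and 318 CPM in rods against 127 and 107 CPM in cones (1.42 ± 0.18 SE, adjusted p = 3.48e-05), and Arl6 at P13 only (1.15 ± 0.24 SE, adjusted p = 0.00287).

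Of the IFT genes, Ift122 was higher in rods at P13 (1.17 ± 0.31 SE, adjusted p = 0.0114) and P30 (1.68 ± 0.31 SE, adjusted p = 9.47e-04), and the P13 difference was 0.85 without cone P13 replicate 2. Ift88 was called at P7 (1.23 ± 0.37 SE, adjusted p = 0.035) and P30 (1.13 ± 0.37 SE, adjusted p = 0.0355), and at both ages leaving out any 1 library of the comparison ended the call. Wdr35 at P7 (1.05 ± 0.32 SE, adjusted p = 0.0389) lost its call without any of 3 libraries, with values from 0.75 to 1.20. At P30, Ttc21b had 50.8 and 49.8 CPM in rods, against 7.05 and 27.3 CPM in cones (1.86 ± 0.46 SE, adjusted p = 0.00861), and the call rested in part on the lower cone library, without which the difference was 0.88. Traf3ip1 at P30, at 15.01 and 12.2 CPM in rods against 4.08 and 2.97 CPM in cones, was higher by 1.96 ± 0.44 (SE; adjusted p = 0.00413). Ift80 was the single IFT gene lower in rods, with 105 and 93.9 CPM in rods at P30 against 214 and 250.1 CPM in cones (-1.22 ± 0.22 SE, adjusted p = 8.72e-04), and with plain read totals its log2 difference of -0.61 was no longer called. None of the 5 motor genes was called between rods and cones.

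In the connecting cilium, Cep290 was higher in rods at P13 (1.55 ± 0.40 SE, adjusted p = 0.0101) and P30 (1.70 ± 0.40 SE, adjusted p = 0.00575). Its calls ended without cone P13 replicate 1 (adjusted p = 0.1) and without rod P30 replicate 1 (adjusted p = 0.0679). Rpgrip1 was higher at P30 (1.21 ± 0.31 SE, adjusted p = 0.0105), where leaving out either of 2 libraries ended the call, and Lca5 at P13 (1.19 ± 0.36 SE, adjusted p = 0.0234), where any 1 of 3 did. Spata7, Iqcb1, Nphp4, Rpgr and Rpgrip1l were called at no age, and their log2 differences ran from -0.40 to 1.03. Among the barrier genes, Tctn1 was higher in rods at P7 (1.34 ± 0.42 SE, adjusted p = 0.0427), a call that ended without any 1 of the 4 libraries, and at P30 (2.08 ± 0.42 SE, adjusted p = 0.00204). Cc2d2a was higher at P13 (1.02 ± 0.21 SE, adjusted p = 0.00226), near the fold threshold, and Mks1 at P30 (1.35 ± 0.44 SE, adjusted p = 0.0362), where 1 rod library stood at 49.6 CPM and the difference without it was 0.70. Ahi1 was lower in rods at P7 (-1.16 ± 0.17 SE, adjusted p = 2.07e-04) and P13 (-1.20 ± 0.17 SE, adjusted p = 9.35e-05) and not at P30, where its log2 difference was -0.09 ± 0.17 (SE).

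The lipidated cargo genes differed in both directions. Pde6d was lower in rods at P30, with 174 and 194 CPM in rods against 884 and 575 CPM in cones (-1.96 ± 0.21 SE, adjusted p = 6.39e-06), and the 2 cell types did not overlap. Tulp3 was lower in rods at P13 (-3.01 ± 0.77 SE, adjusted p = 0.00981) and P30 (-2.68 ± 0.77 SE, adjusted p = 0.0194), at levels of 0.377 to 3.76 CPM in rods, and both calls ended without either of 2 libraries. Rp2 at P13 was fitted at -5.96 ± 1.76 (SE; adjusted p = 0.0209), but it had 4.95 CPM in rod P13 replicate 1 and none in rod P13 replicate 2, against 12.8 and 10.9 CPM in cones, and without replicate 2 the difference was -1.25 (adjusted p = 0.0779). Unc119 and Arl3 were called at no age, with log2 differences of 0.41 ± 0.17, 0.09 ± 0.17 and 0.15 ± 0.17 and 0.29 ± 0.27, 0.32 ± 0.27 and -0.28 ± 0.27 (SE) at P7, P13 and P30. The rod markers present in cone libraries, at 9.97% to 12.3% of their level in rods with Gngt1 and 3.33% to 3.89% without it, and the high mitochondrial share of cones at P30 moved with these comparisons; their part was not tested.

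Fewer genes of the set changed between successive ages than differed between bipolars and photoreceptors. In rods at P13 against P7, 8 of 52 genes were called, 7 higher and 1 lower, against 12.6% of all genes, with 5.62% higher and 7.02% lower. The genes that rose were Lca5 (1.60 ± 0.36 SE, adjusted p = 0.00719), Cc2d2a (1.35 ± 0.21 SE, adjusted p = 5.81e-04), Bbs5 (1.30 ± 0.22 SE, adjusted p = 0.00125), Arl6 (1.26 ± 0.24 SE, adjusted p = 0.00274), Arl13b (1.11 ± 0.22 SE, adjusted p = 0.00289), Mkks (1.05 ± 0.32 SE, adjusted p = 0.0361) and Ift80 (1.00 ± 0.22 SE, adjusted p = 0.00664). Tulp3 fell (-3.46 ± 0.77 SE, adjusted p = 0.00717). Bbs5 had 331 and 336 CPM in rods at P13 against 139 and 132 CPM at P7, with no overlap. With only the rod groups at these 2 ages in the fit no gene of the set and no gene of the table was called, and with plain read totals 5 were, 2 higher and 3 lower. Leaving out 1 library gave 5 to 12 calls: Arl13b, Ift80, Lca5, Mkks and Tulp3 lost theirs without 1 or more libraries, and Arl6, Bbs5 and Cc2d2a kept theirs.

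In rods at P30 against P13, 4 genes were called, against 12% of all genes (6.74% higher and 5.3% lower): Kif17 and Rp2 higher, Arl6 and Ift43 lower. Kif17 had 3.01 and 2.51 CPM in rods at P30 and no read at P13 or P7. Counting 3 reads over both libraries of the younger age, its level was at least 62.8-fold that at P13 and 87.8-fold that at P7. These bounds cover counting error only, not the loss of a gene from a library. Rp2, for example, had 4.95 CPM in rod P13 replicate 1 and 0 in replicate 2. Arl6 had 308 and 415 CPM at P30 against 675 and 817 CPM at P13 (-1.06 ± 0.24 SE, adjusted p = 0.00886), beside 334 and 288 CPM at P7. Ift43 had log2 differences of -1.01 ± 0.26 (SE; adjusted p = 0.0181), and Rp2 by 5.88 ± 1.76 (SE; adjusted p = 0.0354), of which 1.17 remained without the P13 library at 0. All 4 calls ended without rod P30 replicate 1 or without rod P13 replicate 2, and 14 genes were called without rod P13 replicate 1. With plain read totals the 4 calls were all higher, and with the rod groups of these 2 ages alone in the fit there were none.

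In cones at P13 against P7 limma called none of the 52 genes, against 0.44% of all genes; 9 had an unadjusted p under 0.05, and voom on recovered reads called none either. At P30 against P13 a single gene was called, against 3.2% of all genes (0.85% higher and 2.35% lower). It was Pde6d, with 884 and 575 CPM at P30 against 339.8 and 365 CPM at P13 (1.02 ± 0.21 SE, adjusted p = 0.0138), and the call ended without any 1 of 3 libraries, with values from 0.71 to 1.07. With plain read totals 6 genes were called, all lower at P30, and all genes shifted to a median of -0.48 in that step. In bipolars at P13 against P7, 6 genes were called, 5 higher and 1 lower, against 2.98% of all genes (2.3% higher and 0.686% lower). Those that rose were Ift57 (1.71 ± 0.36 SE, adjusted p = 0.0143), Ttc8 (1.47 ± 0.16 SE, adjusted p = 4.43e-05), Ift122 (1.29 ± 0.31 SE, adjusted p = 0.0286), Ift80 (1.18 ± 0.22 SE, adjusted p = 0.00597) and Ahi1 (1.09 ± 0.17 SE, adjusted p = 0.00108). Rpgrip1 fell, to 25.02 and 13.2 CPM at P13, against 63.5 and 47.5 CPM at P7 (-1.60 ± 0.31 SE, adjusted p = 0.00792). Only the call of Ttc8 held whichever library was left out, and voom called 2 of the set. At P30 against P13, Rpgrip1 alone was called in bipolars, higher by 1.45 ± 0.31 (SE; adjusted p = 0.023), against 1.86% of all genes (1.4% higher and 0.47% lower). The call ended without bipolar P13 replicate 2 or bipolar P30 replicate 2, and with plain read totals, and the rod markers, at 650.1 to 820.3 CPM at P30 against 375 to 437 CPM at P13, moved in the same direction; their part was not tested.

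The change over the whole period was also compared between cell types. Between rods and cones, 4 genes of the set changed differently from P7 to P30, 3 upward and 1 downward in rods relative to cones, against 10.6% of all genes (6.04% and 4.57%). With plain read totals there were 13, all upward. Between bipolars and the mean of rods and cones, 6 did, 4 upward and 2 downward, against 11.1% of all genes (6.86% and 4.27%). With plain read totals there were 8, all upward. Ttc8 and Ift57 had the largest differences in change of the 6: Ttc8 changed in bipolars by 2.27 on the log2 scale over the period, and in photoreceptors by 0.53. Ift57 had changes of 2.46 in bipolars and 0.39 in photoreceptors. The difference between these changes was 1.74 ± 0.20 (SE; adjusted p = 5.03e-05) for Ttc8 and 2.06 ± 0.45 (SE; adjusted p = 0.00694) for Ift57. The call of Ift57 ended with voom on recovered reads and without bipolar P7 replicate 2.

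At P13, rod bipolars and cone bipolars differed in 6 of the 52 genes, 4 higher and 2 lower in rod bipolars, against 4.68% of all genes called, 1.51% higher and 3.17% lower. The rod bipolar markers summed to 8246 to 10015 CPM in rod bipolars against 733 to 859 CPM in cone bipolars. Ift20, an IFT-B subunit that also works at the Golgi, had 1265 and 1099 CPM in rod bipolars, against 160.3 and 165 CPM in cone bipolars. The libraries labelled bipolars had 212 and 251 CPM at P13, rods 246 and 414 CPM and cones 191 and 203 CPM. Rod bipolars thus lay above every other library of the table for Ift20, and the log2 difference from cone bipolars was 2.86 ± 0.22 (SE; adjusted p = 1.31e-06). Per kilobase, Ift20 was the most abundant gene of the set in rod bipolars, at 775 CPM per kb, ahead of Unc119 at 186. No other gene of the set differed as much between these groups, and Ift20 kept its call when any of the 4 libraries was left out.

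Rpgr had 429 and 273 CPM in rod bipolars, against 131 and 127 CPM in cone bipolars (1.40 ± 0.25 SE, adjusted p = 0.00313), a level in rod bipolars that overlapped the rods at the same age, and its call ended without rod bipolar P13 replicate 1 (adjusted p = 0.0563). Dync2h1 had 159 and 126 CPM in rod bipolars, against 62.5 and 55.5 CPM in cone bipolars (1.27 ± 0.26 SE, adjusted p = 0.00819). Ift43 had 43.3 and 63.3 CPM in rod bipolars, against 21.1 and 23.4 CPM in cone bipolars (1.23 ± 0.26 SE, adjusted p = 0.0103). Lower in rod bipolars were Kif3a, with 40.5 and 52.7 CPM in rod bipolars, against 116 and 126 CPM in cone bipolars (-1.39 ± 0.28 SE, adjusted p = 0.00677), and Ift57, with 5.66 and 12.005 CPM in rod bipolars, against 18.8 and 33.4 CPM in cone bipolars (-1.60 ± 0.36 SE, adjusted p = 0.0151). All 5 lost the call when 1 or more libraries were left out, with adjusted p between 0.0563 and 0.218. With only these 2 groups in the fit, 3 of the set were called.

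**Figure D5:**
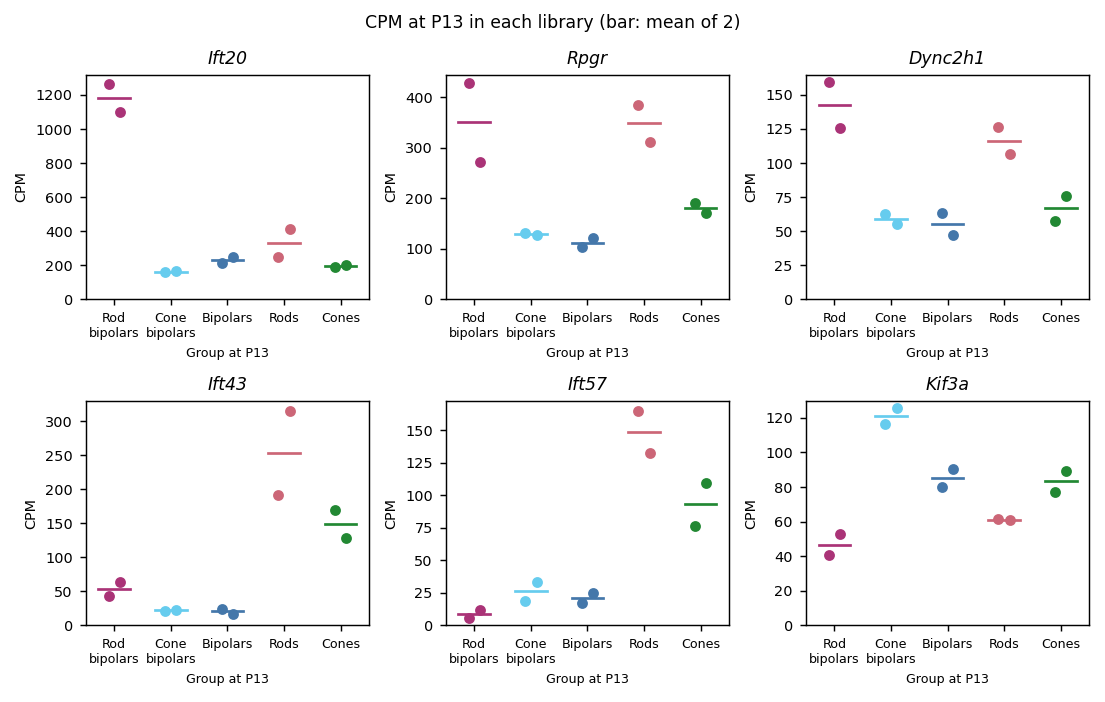
CPM at P13 of the 6 genes called between rod bipolars and cone bipolars, in rod bipolars, cone bipolars, bipolars, rods and cones; points are libraries and bars the mean of 2, with axes that start at 0. Ift20 stands at 1265 and 1099 CPM in rod bipolars and at or below 414 CPM in every other library shown.

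Other ciliary genes, from lists written beside the set, were read in the same way. Over all genes, 11.1%, 12.8% and 13% were lower in bipolars than in photoreceptors at P7, P13 and P30, and 11.6%, 20.6% and 22.6% higher. The medians over all genes were 0.12, 0.18 and 0.13. Of 21 other IFT and BBSome genes, 0, 0 and 1 were higher and 11, 11 and 13 lower in bipolars than in photoreceptors at P7, P13 and P30, with medians of -1.34, -1.22 and -1.25. Dync2li1, a light intermediate chain of dynein-2, averaged 9.77 CPM in bipolars and 103 CPM in photoreceptors at P7, a log2 difference of -3.29 ± 0.25 (SE; adjusted p = 1.05e-07). Wdr60 and Wdr34, intermediate chains of the same motor, had log2 differences of -2.68 ± 0.33 (SE; adjusted p = 1.83e-05) and -2.42 ± 0.40 (SE; adjusted p = 2.72e-04) at P7. The exception was Kif3c, a neuronal kinesin-II subunit, which was higher at P30 (2.50 ± 0.91 SE, adjusted p = 0.0356). Of 19 other transition zone genes tested, 12, 13 and 12 were lower and 0, 1 and 1 higher, with medians of -1.35, -1.52 and -1.38. Tmem107 averaged 2.26 CPM in bipolars and 52.9 CPM in photoreceptors at P7 (-4.41 ± 0.30 SE, adjusted p = 3.00e-08) and was lower at P13 (-3.27 ± 0.30 SE, adjusted p = 6.16e-07) and P30 (-2.74 ± 0.30 SE, adjusted p = 4.12e-06). Of 22 centriole and distal appendage genes, which most cells use, 7, 7 and 8 were lower and 2, 0 and 0 higher, with medians of -0.37, -0.62 and -0.73.

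Of 14 photoreceptor axoneme and ciliary kinase genes tested, 9, 9 and 8 were lower in bipolars and 0, 1 and 0 higher, with medians of -3.99, -3.16 and -2.71. The shares over all genes in this comparison were 11.1%, 12.8% and 13% lower and 11.6%, 20.6% and 22.6% higher. Rp1, a microtubule protein of the outer segment axoneme, averaged 2.23 CPM in bipolars and 790.0 CPM in photoreceptors at P30 (-8.11 ± 0.36 SE, adjusted p = 4.93e-10), and Tulp1, a photoreceptor relative of Tulp3, averaged 2.27 CPM in bipolars and 238 CPM in photoreceptors (-6.65 ± 0.37 SE, adjusted p = 3.01e-09). Tulp1 and Tulp3 thus ran in opposite directions between the cell types. Of the 5 RFX and FOXJ1 regulators tested, 1, 2 and 1 were lower and 1, 1 and 0 higher in bipolars, and Rfx1 was lower in bipolars at each age, at a log2 difference of -1.67 ± 0.28 (SE; adjusted p = 3.22e-04), -1.75 ± 0.28 (SE; adjusted p = 1.53e-04) and -1.59 ± 0.28 (SE; adjusted p = 3.37e-04). Only 5 of 18 motile cilium genes passed the filter. Between rods and cones, 3.3%, 7.1% and 9.98% of all genes were higher and 9.52%, 14.1% and 10% lower in rods at P7, P13 and P30. Beside these shares, the other IFT and BBSome list had 4, 7 and 1 of 21 genes higher and 1, 0 and 3 lower in rods, and the other transition zone list 3, 7 and 4 of 19 higher and 0, 1 and 1 lower. In that comparison Rp1 was higher in rods at each age, with log2 differences of 2.86 ± 0.42 (SE; adjusted p = 2.44e-04), 2.73 ± 0.42 (SE; adjusted p = 2.37e-04) and 2.95 ± 0.42 (SE; adjusted p = 1.14e-04).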

How the data were processed

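The study measured RNA of sorted mouse retinal cells, amplified in a linear fashion and made into libraries with a TruSeq v2 kit, per the labels' protocols. The authors used STAR, edgeR and the GRCm38 (mm10) genome, per the submitters' processing notes, without their versions; counter, annotation and gene filter were not stated in the labels or the table. The authors deposited log2 CPM for 13812 Ensembl genes in 22 libraries, per the file's name and values. A gene with no reads has the value -7.10 in every library; with that floor taken off, 100.0% of the values lay within 0.01 of whole reads. GENCODE M21 gave symbols, positions and exon lengths for 13785 of the IDs, and the 27 others, at most 0.378% of a library's reads, were left out.

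Tests used limma 3.58.1 in R 4.3.3 on the deposited log2 values, with all 22 libraries and 11 group coefficients, 11 residual and 4.27 prior degrees of freedom, an intensity trend and Benjamini-Hochberg adjustment over the 13405 genes tested in each of 15 comparisons. Genes below a log2 CPM of 0 in 1 or both libraries of every group were left untested (380 genes). A gene was called at an adjusted p under 0.05 with an absolute log2 difference of at least 1. Photoreceptors are the mean of the rod and cone log2 means. Floors are 3 reads over both libraries of a group, 0.0541 to 0.170 CPM for single libraries, and cover counting error only. The main fit did not pair libraries by replicate number. Replicate differences correlated from -0.142 to 0.193 over 55 pairs of groups. Such correlations cannot tell if libraries share animals or a preparation, since numbers may be given in any order.

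The members and lists were chosen with earlier results of these data known. Per comparison, full statistics went to up to 10 called members in each direction by size of difference, up to 4 genes were named per other list, and library values were given for members called between cell types at 2 or more ages and for the lipidated cargo and connecting cilium genes. Statistics were given as well for further called members whose library values are shown. Alternatives were no filter, log2(CPM + 1), a fit of the compared groups, a replicate block, plain read totals, no fold threshold, leaving out each library and, added after the data were seen, limma voom on recovered reads.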

Additional observations from a re-analysis of the deposited data

Results flagged for a closer look

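The change from P7 to P30 differed between cell types in 10 genes of the set by a test of the difference itself. Between rods and cones there were 4, or 7.69% of the set against 10.6% of all genes. Pde6d changed by -0.06 on the log2 scale in rods and 1.49 in cones, a difference of -1.55 ± 0.29 (SE; adjusted p = 0.00391). With plain read totals the difference of Pde6d was -0.89 and was no longer called. Bbs2 changed by 1.52 in rods and 0.31 in cones (1.21 ± 0.25 SE, adjusted p = 0.00747). The calls of Pde6d and Bbs2 both ended when the fit was limited to the rod and cone libraries of these ages. For Ahi1 the changes were 0.63 in rods and -0.44 in cones (1.07 ± 0.24 SE, adjusted p = 0.00999). Kif17 had 3.01 and 2.51 CPM in rods at P30 and no read at P7, and in cones 0 and 0.795 CPM at P30 and 0.317 and 0.3605 CPM at P7. The fitted difference of 10.74 ± 3.04 (SE; adjusted p = 0.0337) depends on the prior and is no estimate of a fold, and the call ended when any 1 of 7 libraries was left out, with adjusted p between 0.0631 and 0.122. On the log2(CPM + 1) scale it was 1.91 and not called.

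Between bipolars and photoreceptors there were 6, or 11.5% of the set against 11.1% of all genes. The changes in bipolars and photoreceptors were 2.46 and 0.39 for Ift57, whose difference was 2.06 ± 0.45 (SE; adjusted p = 0.00694). Ttc8 had 2.27 and 0.53 (1.74 ± 0.20 SE, adjusted p = 5.03e-05). Ift80 had 2.18 and 0.69 (1.49 ± 0.27 SE, adjusted p = 0.00217), and Bbs4 1.78 and 0.40 (1.38 ± 0.23 SE, adjusted p = 0.00101). In the other direction, Lca5 had -0.58 in bipolars and 0.91 in photoreceptors (-1.49 ± 0.44 SE, adjusted p = 0.0363). Arl13b had -0.45 and 0.73 (-1.18 ± 0.26 SE, adjusted p = 0.00847). Leaving out 1 library ended the call of Lca5 for 6 of the libraries. The call of Ift57 ended without bipolar P7 replicate 2 (1.82) and that of Arl13b without bipolar P7 replicate 1 (-1.07). Voom on recovered reads ended the calls of Ift57, Ift80, Lca5 and Arl13b, and plain read totals those of Lca5 and Arl13b. Müller glia markers in bipolars moved over the same period, to a mean of 6975 CPM at P30 against 288 CPM at P7. Amacrine, vascular, microglial and red blood cell markers did too, to means of 607, 592, 220 and 140 CPM at P30 against 252, 28.6, 5.21 and 0.0515 CPM at P7. Rod bipolar markers in bipolars rose from a mean of 815 CPM at P7 to 3118 CPM at P30, and cone bipolar markers fell from 2042 to 958 CPM. The part of these markers, and of the mix of bipolar types, in the 6 values was not tested.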

How the results depend on the processing

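The 104 values followed here are the called members with the largest differences, up to 10 in each direction per comparison. None of the 104 changed sign. The total counts for bipolars against photoreceptors stayed within 1.5 times under every alternative run. With plain read totals, however, the higher calls among them were 5 and not 2 at P13 and 3 and not 1 at P30. Plain read totals also turned the balance of the steps between ages: 2 higher and 3 lower in rods at P13 (7 and 1 as reported), 4 and 0 in rods at P30 (2 and 2 as reported), and 0 and 6 in cones at P30 (1 and 0 as reported). In the change between bipolars and photoreceptors they gave 8 higher and 0 lower (4 and 2 as reported). Leaving out 1 library gave 29 to 34, 30 to 34 and 28 to 31 calls for bipolars against photoreceptors at P7, P13 and P30, and 5 to 6, 10 to 19 and 11 to 16 for rods against cones. For successive ages the ranges were 5 to 12 and 0 to 14 in rods, 0 in cones at P13, 0 to 2 in cones at P30, and 2 to 4 and 0 to 1 in bipolars. They were 2 to 6 for rod against cone bipolars, 3 to 5 for the rod and cone difference in change over P7 to P30, and 4 to 9 for the bipolar and photoreceptor one. When the fit held the compared groups alone, which leaves few degrees of freedom, counts were 3 and 7 for rods against cones at P13 and P30, 0 for both steps in rods, 0 for cones at P30, 0 for bipolars at P30, 3 for rod against cone bipolars and 1 for the change between rods and cones. With plain read totals they were 5 and 28 for rods against cones at P7 and P30, 5 for rods at P13, 6 for cones at P30, 0 for bipolars at P30 and 13 for the change between rods and cones, all 13 higher, where the median of all genes was 1.03. With no fold threshold they were 23 for rods against cones at P13, 14 and 10 for the steps in rods, 2 for cones at P30 and 4 for bipolars at P30. Voom on recovered reads gave 2 for bipolars at P13, 0 for bipolars at P30 and 3 for the change between bipolars and photoreceptors. The cause of these shifts was not tested beyond what each setting changes. A replicate block ended 1 call, that of Tctn1 in rods against cones at P7, where the count went to 7. The labels give no link between libraries of different groups beyond that number. It gave 5 calls for rods at P30 and 7 for the change between bipolars and photoreceptors. Of these 104 values, 103 kept their call with the block, 60 with the compared groups alone, 85 with plain read totals and 92 with voom. They leave out the called members with smaller differences. Over all members called for bipolars against photoreceptors, plain read totals kept 30 of 33 at P7, 26 of 32 at P13 and 24 of 30 at P30. The edgeR test on recovered reads was not run, since the deposited unit is log2 CPM. With 2 libraries a group, leaving 1 out assumes that the other varies like the rest.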

Other observations

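Dnah9, a heavy chain of the axonemal dynein of motile cilia, averaged 1.52 CPM in bipolars and 160.3 CPM in photoreceptors at P30, a log2 difference of -6.52 ± 0.59 (SE; adjusted p = 5.40e-07), and at P7 it was lower in rods than in cones, at a log2 difference of -3.98 ± 0.68 (SE; adjusted p = 8.75e-04). Ccdc39, a ruler protein of the same cilia, was higher in rods than in cones at P30 (2.61 ± 0.45 SE, adjusted p = 6.08e-04) and in rod bipolars than in cone bipolars at P13 (1.70 ± 0.45 SE, adjusted p = 0.0366). Ccdc40, on the same list, ran opposite to Dnah9 between bipolars and photoreceptors at P30, at low levels. It had 2.46 and 1.75 CPM in bipolars, 0 and 0.502 CPM in rods, and 0 and 0 CPM in cones.

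Cep164, which builds the distal appendages, averaged 214 CPM in rods and 30.5 CPM in cones at P30 (2.80 ± 0.31 SE, adjusted p = 9.29e-06). Its level in bipolars at that age was 7.18 CPM. Cdhr1, a cadherin at the base of outer segment discs, ran the other way, with 1088 CPM in rods and 2627 CPM in cones at P30 (-1.27 ± 0.16 SE, adjusted p = 3.52e-05), and was lower in rod bipolars than in cone bipolars at P13, at 104 and 435 CPM (-2.06 ± 0.16 SE, adjusted p = 1.31e-06).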
